A study of Mus musculus with 7 samples.

Results

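Known targets of the transcription factor p53 were followed in mouse intestinal epithelial cells after an inducible deletion of Mob1a and Mob1b. The 10 p53 response genes were listed by symbol, and their probes were found through the RefSeq accession that the array files give for each probe. All 10 had a probe, 12 probes in all, of 20887 genes with a symbol and 55681 probes on the array. Each gene is described by its brightest probe, and all 10 passed the filter on dim probes and entered a test over 24760 features.

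p53 is held at a low level in unstressed cells because Mdm2, itself a p53 target, marks it for destruction. When DNA damage or another stress releases it, p53 switches on genes that stop the cell cycle (Cdkn1a, Plk2, Ccng1, Gadd45a), genes that feed back on p53 (Mdm2, Trp53inp1), genes that trigger mitochondrial cell death (Bbc3, Pmaip1, Bax) and the secreted stress cytokine Gdf15. In the intestinal epithelium this programme is best known from irradiated crypts, where Bbc3 and Cdkn1a govern the death and arrest of dividing cells. Several of these genes also respond to other stress pathways, so their level alone does not read out p53. Mob1a and Mob1b are adaptor proteins of the Hippo pathway, which restrains the growth regulators Yap1 and Wwtr1.

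Intestinal epithelial cells were taken with 2 mM EDTA from the proximal intestine of male C57BL/6J mice (backcrossed for more than 6 generations), treated at 8 weeks of age with tamoxifen at 80 mg/kg per day for 2 days. The knockout mice carried Mob1a f/f, Mob1b f/f and Villin-creERT2, a tamoxifen-activated Cre recombinase driven in the gut epithelium by the Villin promoter, and were sampled at day 4 (2 arrays), day 7 (2 arrays) and day 10 (1 array). The 2 control arrays, labelled wild type, came from Mob1a f/f; Mob1b f/f mice without the Cre that also received tamoxifen. The sample label places these controls at day 7, while the design text gives a day 0 group. Because no control carried Cre, an effect of the active recombinase cannot be told apart from that of the deletion. The design text names different mice at days 0, 4 and 7 and does not mention day 10. All 7 arrays lay on 1 slide, the controls and day 4 in slide row 1 and days 7 and 10 in slide row 2, so slide row and later time cannot be told apart.

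The array's 75th percentile signal lay between 277.9 and 338.6 on 6 arrays and was 469.6 at day 10, and 45.18% to 51.26% of probes were well above background. The targeted Mob1b fell by 1.56 ± 0.22 on day 7 (log2, SE; limma adjusted p = 0.0133) and by 1.62 ± 0.26 on day 10 (adjusted p = 0.00676), while its day 4 difference of -1.41 missed the threshold (adjusted p = 0.18). The single dim Mob1a probe did not fall, at -0.25 at day 4 and 0.27 at day 7, and was higher by 1.62 ± 0.30 at day 10 (adjusted p = 0.0104). Where either probe lies relative to the deleted exons is not given in the sources used here.

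The lone day 10 array stood apart in its cell type markers. The summed linear level of 8 epithelial markers was 1381 and 1559 in the controls and 1855 at day 10. Of these, 3 were called higher at day 10 (Cdh1, Krt18 and Krt19) and 1 lower (Vil1). The sum of 8 enterocyte markers was 3193 and 3292 in the controls against 439.4, with all 8 lower. Markers of crypt base stem cells, goblet cells and enteroendocrine cells were lower for 4 of 4, 5 of 5 and 5 of 5 measured genes, and T cell markers for 6 of 7 (summed level 220.9 and 192 in the controls against 11.01). Among 6 measured macrophage and neutrophil markers 4 were higher (Adgre1, Cd14, Csf1r and S100a9). Their list had a summed level of 41.19 and 43.86 in the controls, 51.46 and 60.02 at day 7, and 263.3 at day 10. That sum mostly follows its brightest probe, which was Itgam in the controls and at day 7 and S100a9 at day 10. Itgam was called at neither day. At day 7 S100a9 alone was called higher. Itgam and Adgre1 then differed from control by 0.45 and 0.33 (log2), and Csf1r, Cd14 and Lyz2 by -0.12, -0.47 and -1.49. S100a9, from this macrophage and neutrophil list, was not well above background in either control. It was at least 5.76-fold higher at day 7 and at least 3680-fold higher at day 10. Adgre1 was also not well above background in either control, and was at least 2.56-fold higher at day 10. These bounds set the mean of the brighter group against the lowest signal that passed as well above background on each control array, or the measured signal where that was higher. Day 7 showed part of these shifts: 4 of 5 goblet markers (Muc2, Spink4, Fcgbp and Tff3), the stem cell markers Ascl2 and Lgr5, and the enteroendocrine markers Neurog3, Chga and Chgb were already lower. The goblet sum went from 1639 and 1533 in the controls to 299.1 and 600.2 at day 7 and 65.52 at day 10. The part of these shifts in the values below was not tested, and fewer cells of a type and less RNA per cell cannot be told apart in bulk RNA.

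The promoter sequences show which of the genes carry a p53 recognition motif next to their start. A window from 250 bases before to 50 bases after the start of each transcript was available from RefSeq (GRCm38.p6) for 8 of the 10 genes, 12 windows in all. The p53 half-site consensus, which reads the same on both strands, was present without mismatch in 5 of the 12 windows, each from a different gene, against 8.36% of all 32851 windows. A pair of abutting half-sites, with at most 3 mismatches and none in the inner 4 letters of either, was present in 2 of the 12 windows, against 0.572% of all. The pairs stood in a window of Cdkn1a, at chr17:29090928-29090947 on the plus strand with 1 mismatch, and in a window of Bbc3, at chr7:16309486-16309505 on the plus strand with 3 mismatches. The same Cdkn1a window held 2 half-sites without mismatch, 1 inside the pair and 1 before it at chr17:29090906-29090915. Capitals mark the motif, and the lower-case letters are its flanks. The Cdkn1a pair (printed with flanks, chr17:29090923-29090952), the Bbc3 pair (chr7:16309481-16309510) and the separate Cdkn1a half-site (chr17:29090896-29090925) come first. The half-sites of the other genes follow, with the printed stretches of Gadd45a at chr6:67037428-67037457, Mdm2 at chr10:117710925-117710954, Bax at chr7:45467080-45467109 and Ccng1 at chr11:40755452-40755481, all 4 on the minus strand and written 5′ to 3′ along the gene.
Cdkn1a pair: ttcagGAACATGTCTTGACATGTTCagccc
Bbc3 pair: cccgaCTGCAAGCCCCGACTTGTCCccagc
Cdkn1a half-site: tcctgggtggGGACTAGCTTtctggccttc
Gadd45a: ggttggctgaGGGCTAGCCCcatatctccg
Mdm2: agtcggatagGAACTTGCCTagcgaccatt
Bax: agcatatcccAGGCAAGCTTtgaacttgcg
Ccng1: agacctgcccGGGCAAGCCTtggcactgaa

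The windows of Plk2 and Gdf15, the genes with the widest changes below, did not contain these letters, and neither did the other window of Cdkn1a nor the other windows of Bbc3. Pmaip1 and Trp53inp1 have no window in the table. A match describes the sequence only, and p53 sites are often further away or inside the first intron.

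Across the time course the 10 genes did not move as a block. No gene passed the test at day 4 or day 7, while at day 10 Plk2, Gdf15, Pmaip1, Ccng1 and Bbc3 were higher than control and none of the 10 was lower. The classical readouts Cdkn1a and Mdm2 were not among them. Levels are log2 signals minus the array's 75th percentile and are compared only within a probe, and the comparisons share arrays, so they are not independent of each other.

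**Figure D1:**
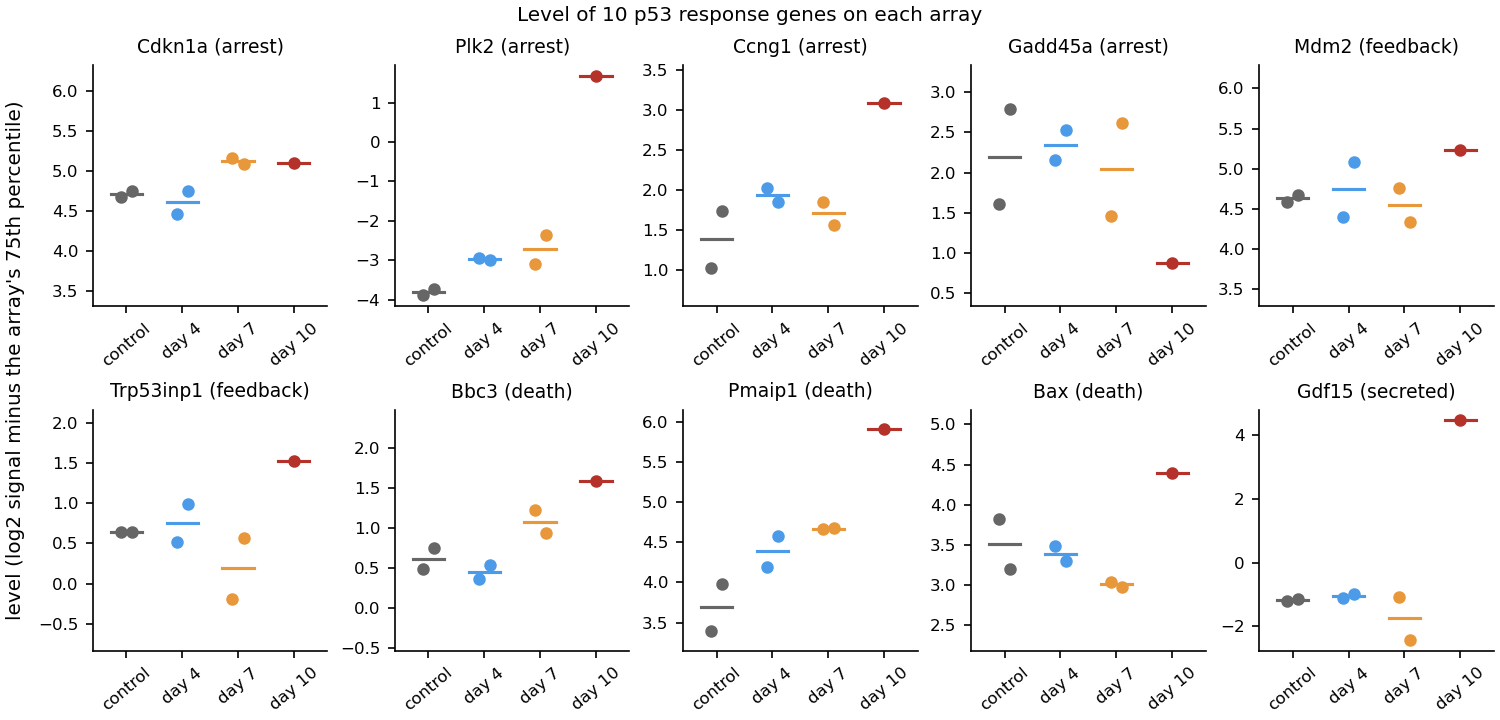
Level (log2 signal minus the array's 75th percentile, each panel with its own axis) of the 10 genes on the control, day 4, day 7 and day 10 arrays; points are arrays and lines are group means. The day 10 point is the highest of 7 for 8 genes, is within the day 7 values for Cdkn1a and is the lowest for Gadd45a.

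Cdkn1a encodes p21, the cyclin-dependent kinase inhibitor that carries out the p53 arrest. Its level was 4.68 and 4.75 in the controls, 4.47 and 4.75 at day 4, 5.16 and 5.09 at day 7, and 5.10 at day 10. Both day 7 arrays and the day 10 array lay above all control and day 4 arrays, and the day 10 array lay between the day 7 arrays. Its mean was 1.33-fold that of control at day 7, a difference of 0.41 ± 0.22 (SE; limma adjusted p = 0.324). It was 1.31-fold that of control at day 10, a difference of 0.39 ± 0.26 (adjusted p = 0.322), and neither passed the test. Between day 7 and day 10 the difference was -0.02 ± 0.26, and it turned to 0.24 with quantile normalization and to 0.17 when the percentile was taken over probes well above background on every array.

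The probe behind this value was printed as 10 repeat spots, which gives a view of the error within an array. Spot signals ran from 6223.9 to 9282.3 on the first control array, where 8 spots were kept, and from 7116.3 to 13472.6 on the first day 7 array. On the other 5 arrays the brightest spot was only 1.05 to 1.11 times the dimmest. The coefficient of variation was 13% and 20.8% on those 2 arrays and 1.56% to 2.99% on the others. These 2 arrays were also the least even over all 399 probes printed this way, with a median coefficient of variation of 22.7% and 17.1% against 5.11% to 6.24%.

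**Figure D2:**
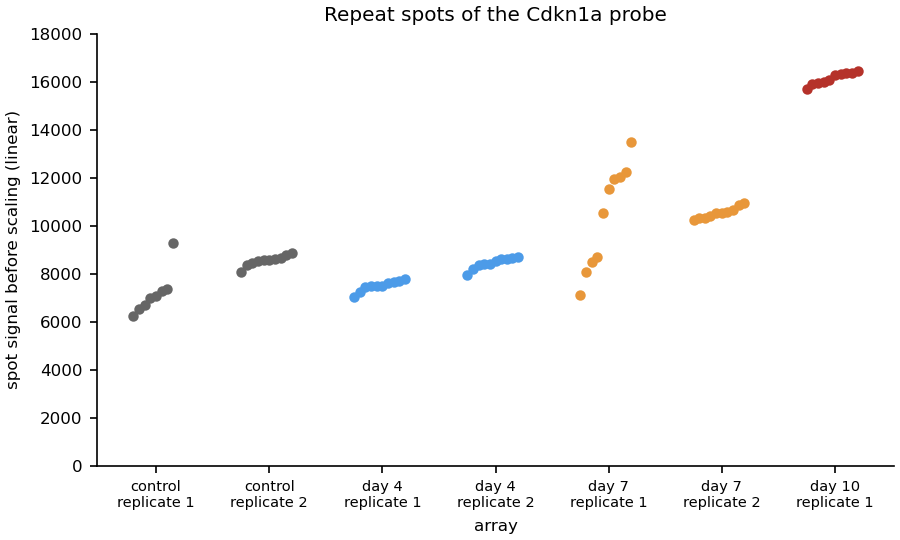
Signal of each repeat spot of the Cdkn1a probe (linear, before scaling) on the 7 arrays, ordered from low to high within an array. Spots of the first control array and the first day 7 array spread 1.49-fold and 1.89-fold, and those of the other arrays by 1.05-fold to 1.11-fold; the day 10 array is the brightest before scaling.

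A second Cdkn1a probe, matched to another transcript accession (NM_001111099), was well above background on the day 10 array alone. Its level there was -1.48, against -6.44 and -6.51 in the controls, and between -6.13 and -4.83 at days 4 and 7. Measured against the background floor, the day 10 signal was at least 7.62-fold that of the controls and at least 5.38-fold that of day 7. It passed the filter on no second array and was not tested. The Cdkn1a probes, matched to different transcript accessions, had day 10 signals before scaling of 16135.6 for the first and 168.3 for the second. The reason for their unlike patterns was not tested.

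Plk2 encodes a polo-like kinase that acts on centrosomes and in the response to stress. Its level was -3.88 and -3.71 in the controls, -2.94 and -2.99 at day 4, -3.09 and -2.34 at day 7, and 1.67 at day 10. All 5 knockout arrays lay above both controls, with the day 10 array far above the rest. The probe was dim before day 10 and was not well above background on the first control and the first day 7 array. At day 10 it was higher than control by 5.47 ± 0.36 (44.2-fold; adjusted p = 0.000364) and higher than at day 7 by 4.39 ± 0.36 (20.9-fold; adjusted p = 0.0013). With normexp background correction the day 10 differences were 3.42 from control and 3.10 from day 7. Earlier differences from control, 0.83 ± 0.30 on day 4 (adjusted p = 0.707) and 1.08 ± 0.30 on day 7 (adjusted p = 0.0906), did not pass.

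Ccng1, cyclin G1, recruits a phosphatase that acts on Mdm2. It stood at 1.03 and 1.74 in the controls, 2.03 and 1.85 at day 4, 1.86 and 1.56 at day 7, and 3.08 at day 10. The control arrays were themselves far apart, the higher control lay between the day 7 arrays, and the day 10 array was above all others. The day 10 difference from control was 1.69 ± 0.37 (3.23-fold; adjusted p = 0.0184). Leaving out control replicate 1 ended that call (1.33; adjusted p = 0.0559), as did a fit of the compared groups alone (adjusted p = 0.0822), and the difference from day 7, at 1.37 ± 0.37, missed the threshold (adjusted p = 0.0512).

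Gadd45a, a growth arrest and DNA damage gene, was the one member whose lowest value was at day 10. Its levels were 1.60 and 2.79 in the controls, 2.15 and 2.53 at day 4, 1.46 and 2.62 at day 7, and 0.88 at day 10. Replicates differed by more than a log2 unit in the controls and at day 7, so that the groups before day 10 overlapped. The day 10 difference of -1.32 ± 0.64 did not pass the test (adjusted p = 0.179). Its relative Gadd45b, a stress and cytokine response gene, was higher at day 10 by 2.64 ± 0.42 (6.21-fold; adjusted p = 0.00625).

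Of the feedback genes neither passed a test. Mdm2, the ubiquitin ligase that degrades p53, had levels of 4.59 and 4.68 in the controls, 4.405 and 5.088 at day 4, 4.76 and 4.34 at day 7, and 5.24 at day 10. The day 10 array was the highest by a small margin over the second day 4 array. Its difference from control was 0.61 ± 0.37 (1.52-fold; adjusted p = 0.276), after 0.11 ± 0.30 at day 4 and -0.08 ± 0.30 at day 7.

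Trp53inp1, a nuclear protein that promotes p53 activity and autophagy, was at 0.64 and 0.64 in the controls, 0.52 and 0.99 at day 4, -0.19 and 0.56 at day 7, and 1.52 at day 10. Both day 7 arrays were below the controls and the day 10 array was above every other array. Neither the difference from control at day 10, 0.88 ± 0.39 (adjusted p = 0.148), nor that from day 7, 1.33 ± 0.39 (adjusted p = 0.0676), passed. The dimmer second probe for the same transcript did not show this order, with -2.13 and -2.83 in the controls and -2.26 at day 10.

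The death genes were all highest at day 10, but by different margins. Pmaip1, which encodes the BH3-only protein Noxa, had levels of 3.39 and 3.98 in the controls, 4.19 and 4.58 at day 4, 4.66 and 4.68 at day 7, and 5.91 at day 10. Its groups did not overlap at any step, each lying above the one before. Day 4 stood above control by 0.70 ± 0.28 (adjusted p = 0.799) and day 7 by 0.98 ± 0.28 (adjusted p = 0.103), neither of which passed. Day 10 stood above control by 2.22 ± 0.35 (4.67-fold; adjusted p = 0.00571), or 8.06-fold with normexp background correction. From day 7 to day 10 the difference was 1.24 ± 0.35 (adjusted p = 0.0574).

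Bbc3 encodes Puma, a BH3-only protein and a main trigger of p53-dependent death in the gut. Its levels were 0.49 and 0.75 in the controls, 0.36 and 0.54 at day 4, 1.22 and 0.94 at day 7, and 1.59 at day 10. Both day 7 arrays and the day 10 array lay above all control and day 4 arrays. The day 10 difference from control was 0.97 ± 0.28 (1.95-fold), with an adjusted p of 0.0496 that stood at the threshold. It ended under 10 of the 16 alternatives run, over which the adjusted p ran from 0.0233 to 0.176. These include leaving out control replicate 1 (0.83; adjusted p = 0.176), control replicate 2 (adjusted p = 0.0851), day 4 replicate 1 (adjusted p = 0.0829) or day 4 replicate 2 (adjusted p = 0.0832), and adding the replicate block (0.99; adjusted p = 0.0738).

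Bax, the pore-forming protein that opens the mitochondrial outer membrane, stood at 3.83 and 3.20 in the controls, 3.49 and 3.30 at day 4, 3.05 and 2.98 at day 7, and 4.39 at day 10. Both day 7 arrays were the lowest and the day 10 array the highest, with the control and day 4 arrays overlapping between them. The difference from control was 0.88 ± 0.33 at day 10 and did not pass (adjusted p = 0.101), although it did with normexp background correction (1.49; adjusted p = 0.00623). Against day 7 it was 1.38 ± 0.33 (2.6-fold; adjusted p = 0.0372). That call ended under 8 of 16 alternatives, including each fit without a day 4 or day 7 array (adjusted p between 0.0735 and 0.089) and the replicate block (1.23; adjusted p = 0.0577).

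Gdf15, a secreted cytokine of the TGF-β superfamily that rises with many kinds of cell stress, had the widest range of the 10. Its levels were -1.20 and -1.13 in the controls, -1.12 and -0.97 at day 4, -1.08 and -2.41 at day 7, and 4.45 at day 10. The first 6 arrays were close together apart from the second day 7 array, which was the lowest, and the day 10 array was far above them. The signal before scaling was between 58.4 and 159.8 on those 6 arrays and 10230.7 at day 10. Its level was higher than control by 5.61 ± 0.53 (48.8-fold; adjusted p = 0.000994) and higher than at day 7 by 6.19 ± 0.53 (73-fold; adjusted p = 0.00139). The fold over day 7 was 116 without day 7 replicate 1 and 46 without day 7 replicate 2. With normexp background correction the Gdf15 folds were 31.9 over control and 37.7 over day 7. The 5 named genes closest to it in their day 4, day 7 and day 10 differences from control were Ifitm6, Entpd3, Samd5, Hilpda and Ren2, at Euclidean distances of 0.36 to 0.72 log2 units.

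**Figure D3:**
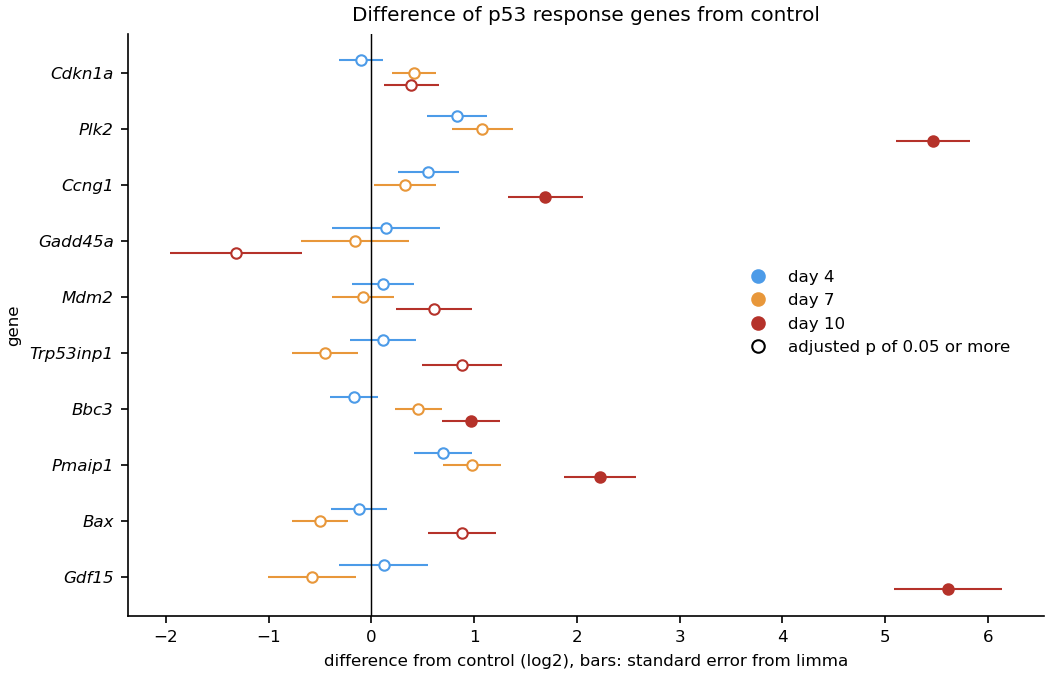
Difference from control (log2) of each gene at day 4, day 7 and day 10 with the standard error of the limma fit over all 7 arrays; filled points have an adjusted p under 0.05. Plk2 and Gdf15 lie beyond 5 at day 10, Pmaip1 and Ccng1 at 2.22 and 1.69, and no point at day 4 or day 7 is filled.

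As a group, 0 of the 10 genes were called at day 4, against 0.0323% of all features, and 2 had an unadjusted p under 0.05, as did 6.18% of all features. At day 7 the count was also 0, against 3.05% of features called higher and 4.32% called lower. An unadjusted p under 0.05 was reached by 2 of the 10 and by 22.7% of all features, so the 10 genes did not exceed the background. The comparison of day 7 with day 4 called 0 as well, against 2.81% of features called in either direction, and 1 of the 10 had an unadjusted p under 0.05, against 17.5% of all features. The medians of the 10 were 0.12 at day 4 and 0.12 at day 7, beside -0.07 and -0.06 over all features. Differences of about a log2 unit, as for Plk2 and Pmaip1 at day 7, did not pass after adjustment.

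At day 10, 5 of the 10 were called higher than control and 0 lower, against 10.7% and 17.5% of all features. The 10 genes were chosen with earlier results of these data known, so the counts set beside all features are descriptive only. An unadjusted p under 0.05 was reached by 6 of the 10 and by 40.6% of all features. The median of the 10 was 0.92 beside -0.13 over all features. Without control replicate 1 the count was 3, the genes that ended being Ccng1 and Bbc3, and it was also 3 when only the groups compared were fitted. Against day 7, 3 were called higher (Plk2, Gdf15 and Bax) and 0 lower, against 7.25% and 11% of all features, with a median of 1.29 beside -0.09. There an unadjusted p under 0.05 was reached by 6 of the 10 and by 32.3% of all features. Plk2, Gdf15 and Pmaip1 kept their day 10 call against control under every alternative run, with adjusted p of at most 0.0146, 0.0146 and 0.0438.

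The day 10 array was the highest of the 7 for 8 genes (Plk2, Ccng1, Mdm2, Trp53inp1, Bbc3, Pmaip1, Bax and Gdf15), against 25.3% of all features, and the lowest for Gadd45a, against 34.4%. These values rest on 1 array, whose error in the fit is taken from the spread of the other groups. The all-feature split at day 10 depended on the scaling. Of the features called against control, 37.9% were higher. The share was 49.2% when the 75th percentile was taken over probes well above background on every array; against day 7 the shares were 39.8% and 50.9%. For day 7 against day 4 they were 45.8% and, with median scaling, 35.1%. The median of all features at day 10 moved from -0.13 to 0.08 and -0.33 under those scalings.

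Other genes that p53 is known to switch on were called in both directions at day 10. Of 30 listed, 27 were tested, of which 7 were higher (Phlda3, Psrc1, Tnfrsf10b, Gtse1, Polk, Zmat3 and Aen), against 10.7% of all features. Lower were 5 (Sesn1, Dcxr, Ephx1, Tap1 and Fas), near the 17.5% of all features, and the median was 0.68. Phlda3, a p53-induced inhibitor of Akt, was at -2.27 and -3.45 in the controls, -0.11 and -1.42 at day 4, -1.13 and -2.17 at day 7, and 3.76 at day 10. All knockout arrays were above the controls, with replicates a log2 unit or more apart. Its day 10 difference was 6.62 ± 0.75 (98.2-fold; adjusted p = 0.00189). The fold was 148 without control replicate 1, 65.3 without control replicate 2, 65.4 with the replicate block and 37 with normexp background correction.

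Psrc1, a spindle protein that was not well above background on control replicate 1, was higher by 2.84 ± 0.29 (adjusted p = 0.00135), or 1.71 with normexp background correction. Tnfrsf10b, a death receptor, was higher by 2.39 ± 0.29 (adjusted p = 0.00249). In the other direction Sesn1, a stress-induced inhibitor of mTORC1, fell by 4.67 ± 0.44 on the log2 scale (25.4-fold lower; adjusted p = 0.000953). Fas, the death receptor, was higher at day 7 by 1.32 ± 0.24 (adjusted p = 0.0281) and lower at day 10 by 2.86-fold (adjusted p = 0.0123). Fas is also a lymphocyte gene. The summed level of 7 T cell markers was 220.9 and 192 in the controls, 342.8 and 287.3 at day 7, and 11.01 at day 10. At day 7 only Gzmb among them was called higher (2.78-fold, limma adjusted p = 0.0227). Cd3d, Cd3e, Cd3g and Cd8a then differed from control by 0.06, -0.003, 0.03 and 0.29, and none was called. Gzma and Ptprc, at 0.59 and 0.51, were not called either. The part of T cell markers in the Fas values was not tested. The metabolic enzymes Ephx1 and Dcxr were lower at both days, with Ephx1 at -2.27 ± 0.41 and Dcxr at -2.17 ± 0.30 at day 7 (adjusted p = 0.028 and 0.0138). Enterocyte markers were lower at day 10 too, and their part was not tested either. At day 7 the list had 1 gene called higher and 3 lower of 27, against 3.05% and 4.32% of all features. Without control replicate 1 the day 10 count was 7 (5 higher and 2 lower). The day 7 count of 4 (1 higher and 3 lower) was 0 without control replicate 1 or day 7 replicate 1, 1 without control replicate 2, and 2 without either day 4 array.

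The p53 gene itself, Trp53, was called in neither direction. Its level was -1.01 and -1.22 in the controls, -0.98 and -1.45 at day 4, -1.80 and -1.86 at day 7, and -1.63 at day 10. The day 7 and day 10 arrays were the lowest, but the differences of -0.71 ± 0.25 (adjusted p = 0.156) and -0.51 ± 0.30 (adjusted p = 0.257) did not pass, and p53 is controlled mainly as a protein, which was not measured. Of 16 tested p53 family members and regulators 0 were called at day 7, against 3.05% of all features called higher and 4.32% called lower. At day 10 there were 2 higher and 2 lower, near the shares of all features (10.7% and 17.5%). Higher were Cdkn2a, whose locus encodes the p16 and Arf tumour suppressors, and Ppp1r13l, an inhibitor of p53, the latter by 2.41 ± 0.38 (adjusted p = 0.00586).

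Cdkn2a was at -4.35 and -3.63 in the controls, -3.80 and -6.32 at day 4, -2.27 and -2.12 at day 7, and 1.66 at day 10. The day 7 arrays were above all control and day 4 arrays, and the day 10 array was above them again. The probe was dim before day 10, with signals of 13.6 and 25.7 in the controls before scaling. It was not well above background on the second day 4 array. Day 10 exceeded control by 5.65 ± 0.95 (50.3-fold; adjusted p = 0.00742), or 12-fold with normexp background correction, after a day 7 difference that missed the threshold (3.47-fold; adjusted p = 0.241). Its second, dimmer probe was well above background at day 10 alone, at least 2.11-fold over control, and the probes do not separate p16 from Arf here. Trp63 and Hipk2 were lower, with -1.04 ± 0.30 for Trp63 (adjusted p = 0.0489) and -1.25 ± 0.30 for Hipk2 (adjusted p = 0.026). The Trp63 probe used had signals of 3117.3 to 4864.5 before scaling. A second Trp63 probe, matched to another transcript, gave only 2.8 to 5.1 and passed the background cut on 0 of the 7 arrays. The Trp63 call therefore rests on the brighter probe alone. The Trp63 and Hipk2 calls ended without control replicate 1, control replicate 2 or either day 4 array, where the list's count was 2.

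Among the other 6 cyclin-dependent kinase inhibitors 1 was called at day 7, against 3.05% of all features called higher and 4.32% called lower. It was Cdkn1c, the imprinted p57, higher by 1.72 ± 0.27 (3.3-fold, limma adjusted p = 0.0191). That call ended without either control or without day 7 replicate 1 (adjusted p between 0.0675 and 0.097). At day 10 Cdkn2a was higher while Cdkn2c and Cdkn1b were lower, at -1.52 ± 0.33 and -0.88 ± 0.26 (limma adjusted p = 0.0179 and 0.0486). That was 1 higher and 2 lower of 6, against 10.7% and 17.5% of all features. Neither lower call held without either control array (adjusted p between 0.0501 and 0.156), and that of Cdkn1b also ended without any 1 day 4 or day 7 array (adjusted p between 0.0521 and 0.0779). Of the 10 close relatives of the listed genes, 2 were higher and 1 lower at day 10, against 10.7% and 17.5% of all features. Higher were Gadd45b and Bok, a relative of Bax, the latter by 2.33 ± 0.31 (limma adjusted p = 0.00341). Ccng2, the relative of Ccng1, was lower, at -1.03 ± 0.29 (adjusted p = 0.0447), a call that ended without either control or either day 4 array (adjusted p between 0.0751 and 0.14).

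The wider cell death machinery was called in both directions. Of 23 tested members of the Bcl-2 family and caspases 5 were higher at day 10 (Bok, Bcl2l11, Bid, Bcl2l1 and Casp8) and 8 lower, among them Bcl2, Bad, Bik, Bcl2l14, Casp6 and Casp9, against 10.7% and 17.5% of all features. The median was -0.34. Bik was not well above background at day 10, and measured against the background floor its drop there was at least 1.32-fold. Bcl2l11 and Bid, both BH3-only triggers like Bbc3 and Pmaip1, were higher by 2.59 ± 0.43 (adjusted p = 0.00744) and 2.02 ± 0.39 (adjusted p = 0.0125). The Bcl2l11 probe was dim and not well above background on control replicate 2. Casp6, a caspase, was lower, at -4.25 ± 0.26 (adjusted p = 0.00031). At day 7 Bid was higher by 1.91 ± 0.32 (limma adjusted p = 0.0216), and Bik, a further BH3-only gene, was lower (adjusted p = 0.0128), though not well above background on either day 7 array and not called with normexp (adjusted p = 0.521). The Bik probe was well above background on the 2 control arrays alone. It thus passed the filter only through the group where it was higher, and it was not tested when either control was left out. Its control mean did not exceed the background floor of the day 7 arrays, so no fold bound can be given for day 7. The Bid and Bik calls made 1 higher and 1 lower of 23, against 3.05% and 4.32% of all features. That count of 2 was 0 without either control array, 1 without day 7 replicate 1, and 4 without day 7 replicate 2 or with the replicate block.

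Integrated stress response genes, which Atf4 switches on when translation is restrained, were called in 1 direction at day 10. Of 14 tested, 6 were higher (Chac1, Psat1, Ppp1r15a, Nupr1, Asns and Atf5) and 0 lower, against 10.7% and 17.5% of all features, with a median of 1.36. Chac1, which degrades glutathione, was higher by 5.55 ± 0.61 (46.8-fold; adjusted p = 0.00166). Ppp1r15a, which restores translation, was higher by 3.54 ± 0.32 (11.6-fold; adjusted p = 9e-04). With normexp these folds were 27.3 for Chac1 and 17.5 for Ppp1r15a. Nupr1, a stress-induced chromatin protein, was higher by 2.85 ± 0.29 (adjusted p = 0.0013). Atf4 itself was at 0.36 ± 0.37 (adjusted p = 0.511) and Ddit3 at 0.06 ± 0.34 (adjusted p = 0.914). At day 7 Psat1, a serine synthesis enzyme, was higher by 2.32 ± 0.41 (limma adjusted p = 0.0269) and Vldlr, a lipoprotein receptor, lower at -2.27 ± 0.35 (adjusted p = 0.0171), or -1.24 with normexp. These were 1 higher and 1 lower of 14, against 3.05% and 4.32% of all features. Neither call was made without control replicate 1, control replicate 2 or day 7 replicate 1, where the count was 0. It was 6 (2 higher and 4 lower) when only probes well above background on every array were tested, and 3 without day 7 replicate 2.

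None of the listed cell cycle genes that p53 is known to lower through p21 and the DREAM repressor complex was called lower at day 7 or day 10. Of 23 tested, 0 were called at day 7, against 3.05% of all features called higher and 4.32% called lower. The median at day 7 was 0.44. At day 10 there were 2 higher, near the 10.7% of all features, and 0 lower, against 17.5%, with a median of 0.31. Higher were Mybl2, a B-Myb transcription factor, by 2.81 ± 0.53 (limma adjusted p = 0.0114) and Rrm2, a ribonucleotide reductase subunit, by 2.32 ± 0.62 (adjusted p = 0.0359). Mki67, the proliferation marker, was at 0.58 ± 0.43 (adjusted p = 0.359). The Rrm2 call ended without either control or either day 4 array (adjusted p between 0.0526 and 0.0988), which left a count of 1.

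**Figure D4:**
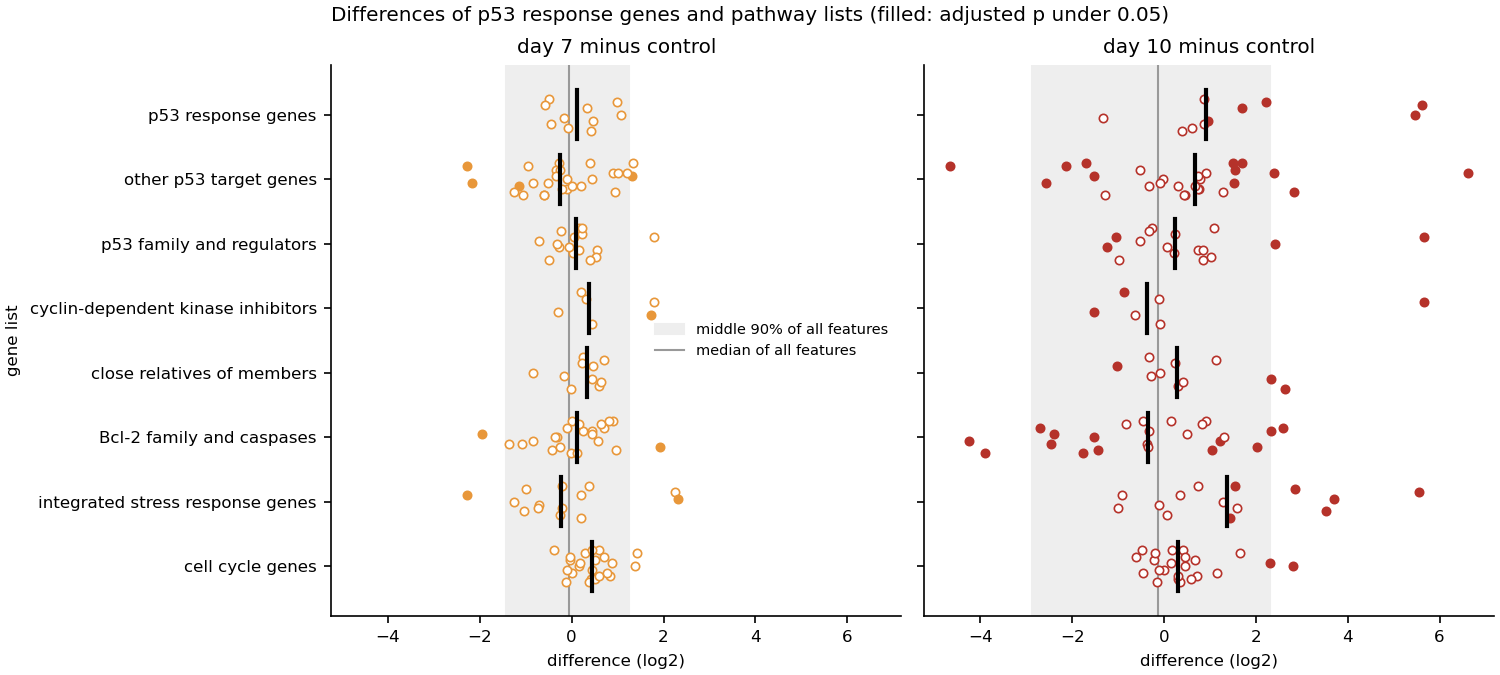
Differences from control (log2) of the 10 p53 response genes and of the genes in 7 pathway lists at day 7 and day 10; points are genes, filled where the adjusted p is under 0.05, and black bars are list medians. Grey shading spans the middle 90% of all features. At day 10 the median is 0.92 for the p53 response genes, 1.36 for the integrated stress response list and -0.34 for the Bcl-2 family and caspases.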

How the data were processed

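Total RNA from 7 samples was hybridised in 1 colour (Cy3) to 7 Agilent arrays of 1 slide (design 028005). The deposited files hold gProcessedSignal, an intensity that Feature Extraction 11.5.1.1 had already background-corrected, per the file headers, with no between-array normalization. The deposited value table holds the same intensity (within 0.1% for 100% of single-spot probes). Here log2 was taken and each array's 75th percentile over all non-control probes subtracted. Outlier spots were dropped, which left out 34 probes, repeat spots averaged, and probes well above background on at least 2 arrays kept, with the brightest probe for each gene. limma 3.58.1 (R 4.3.3) was run on the 7 arrays together with a mean for every group (3 residual and 3.15 prior degrees of freedom). Benjamini-Hochberg adjustment ran over 24760 features (13802 named), and a call is an adjusted p under 0.05, 2-sided. Day 10, with 1 array, borrows its error from the spread of the replicated groups. The code was tested on simulated data.

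The files hold no gene name column: 27509 of 55681 probes were named through their accession and RefSeq (GRCm38.p6), 28172 were not. They hold no mean signal either, so normexp used gMedianSignal and gBGMedianSignal (offset 50). The members and gene lists were chosen with earlier results of these data known. Named genes were the 10 members, the 3 genes of each list with the smallest p at day 7 and at day 10, and the 5 genes nearest Gdf15; some of these are not reported here. Genes with a call that were named beside them were chosen after their values were seen, as were Atf4, Ddit3 and Mki67. List counts under the alternatives were added after seeing the data. The number of arrays limits the precision. Different mice are stated for days 0, 4 and 7.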

Additional observations from a re-analysis of the deposited data

Results flagged for a closer look

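Day 10 and day 7 of the knockout differed, by limma's test of the difference itself, for 3 of the 10 genes: Gdf15 by 6.19, Plk2 by 4.39 and Bax by 1.38 (log2, day 10 minus day 7). The Gdf15 and Plk2 differences were past the threshold under every alternative run, while that of Bax was not in 8 of 16. The second Cdkn1a probe, which the comparisons did not use, had a level of -1.48 on the day 10 array and was not well above background on any other array. No group has enough arrays for a test of outlying samples.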

How the results depend on the processing

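Over all alternatives, 766 values of the 10 genes kept their direction and side of the threshold, 20 lost a call, 13 gained one and 26 changed sign, none of the last being a called difference. The count called at day 10 against control was 3 when only the compared groups were fitted and 3 to 5 when 1 array was left out. Against day 7 it was 5 with quantile normalization, with the percentile over probes well above background on every array, and with those probes alone, where Plk2 dropped out and 9 genes were tested. No alternative called any of the 10 at day 4, at day 7 or between them. The causes were not tested.

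With normexp background correction the sign changed for Mdm2 (-0.097), Bax (0.43) and Gdf15 (-0.051) at day 4, for Gadd45a (0.17) and Trp53inp1 (0.0073) at day 7, and for Cdkn1a between day 7 and day 10 (0.073). The Cdkn1a difference also turned with quantile normalization (0.24) and with the narrower percentile (0.17). Averaging both Trp53inp1 probes gave -0.042 at day 4.

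Leaving out 1 array moved the day 4 difference between -0.25 and 0.037 for Cdkn1a, -0.45 and 0.73 for Gadd45a, -0.23 and 0.46 for Mdm2, -0.12 and 0.35 for Trp53inp1, and -0.43 and 0.19 for Bax. At day 7 it moved that of Ccng1 between -0.034 and 0.68, Gadd45a between -0.75 and 0.44, Mdm2 between -0.30 and 0.13, and Gdf15 between -1.25 and 0.087. From day 4 to day 7 the ranges were -0.13 to 0.62 for Plk2, -0.88 to 0.28 for Gadd45a and -0.54 to 0.14 for Mdm2, and from day 7 to day 10 -0.061 to 0.018 for Cdkn1a.

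The replicate number as a block gave 4 called genes at day 10 against control and 4 against day 7, and turned the Cdkn1a difference from day 7 to 0.023; deviations of same-numbered samples correlated at 0.008, 0.086 and 0.25, so the pairing is by number only. The block ended the Bbc3 and Bax calls and added Trp53inp1 and Pmaip1 against day 7. Dim probes limit Plk2 before day 10 and the second Cdkn1a probe.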
